A study of Rattus norvegicus with 12 samples.

Results

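The miR-23, miR-24 and miR-27 clusters were examined in parotid acinar cells of the rat, the serous secretory cells that make the saliva of this gland. Assays were chosen by name: every miRNA assay on the qRT-PCR panel whose name, without its species prefix, was miR-23a, miR-23b, miR-24, miR-27a or miR-27b. This gave 5 of the 375 miRNA assays, all of them mouse (mmu) assays. None of the 5 had a rat (rno) counterpart, and 0 assays on the panel measured a passenger strand of these hairpins or miR-3074. All 5 gave a value in all 12 samples, as 120 of the 375 assays did.

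The series followed terminal differentiation of the acinar cell at 4 ages of albino Sprague Dawley rats: embryonic day 20 (E20) and postnatal days 5, 15 and 25 (P5, P15 and P25), with 3 samples at each age. The labels name no treatment, and age is the only difference they give between the groups. The paper recognised acinar cells by their structure and by nearby vessels, a choice checked on earlier samples by antibody staining for parotid secretory protein. The cells were cut out of stained sections by laser capture, with separate litters as replicates. Only captures that the paper judged pure were used. A sample is therefore a bulk RNA of many cells, in which fewer cells of a type and less RNA per cell cannot be told apart.

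Each cluster is a single primary transcript from which 3 hairpins are cut. Vertebrates carry a pair of such clusters: the a cluster (miR-23a, miR-27a and a copy of miR-24) lies between genes, and the b cluster (miR-23b, miR-27b and another copy of miR-24) lies within a protein-coding gene. miR-27 is known as a repressor of Pparg and of fat cell formation, miR-23 as a repressor of glutaminase, and miR-24 as a repressor of cell cycle genes. Both clusters are widely expressed and are abundant in endothelium, so their presence does not mark the acinar cell.

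The mature sequences are given because the comparison of the a and b clusters rests on how little they differ. They are the rat sequences of RefSeq (assembly GRCr8), 5′ to 3′, with the seed, bases 2 to 8, in capitals:
miR-23a: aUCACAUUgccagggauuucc
miR-23b: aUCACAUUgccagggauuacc
miR-27a: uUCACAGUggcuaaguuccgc
miR-27b: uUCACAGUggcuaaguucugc
miR-24: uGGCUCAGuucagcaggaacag

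Counted from the 5′ end, miR-23a and miR-23b differed by the substitution U19A alone, and miR-27a and miR-27b by C19U alone. Each a form thus shared its whole seed with its b form. The seeds of miR-23 and miR-27 differed at 1 base, and neither seed was held by another rat mature miRNA in the sequence table of 693 names. The seed of miR-24 was held by miR-24 only.

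miR-23a lies at chr19:40859778-40859798 and miR-27a at chr19:40859614-40859634, both on the minus strand. miR-23b lies at chr17:1819405-1819425 and miR-27b at chr17:1819163-1819183, again on the minus strand. Both loci give the same miR-24, from Mir24-2 (chr19:40859481-40859502) and from Mir24-1 (chr17:1818672-1818693), so that the miR-24 assay cannot be assigned to a cluster. The a cluster spans 389 bp between Zswim4 and Nanos3 with no annotated gene over it. The b cluster spans 814 bp and lies inside Aopep, the gene of an aminopeptidase. How far the assay of an a form also amplifies the b form, with 1 base between them, was not measured here.

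The deposited values are threshold cycles (CT), the PCR cycle at which the signal of a well crosses a threshold, so that a lower CT means more template. The 60 wells of the 5 assays had CTs from 24.8 to 32.3. Among the 120 assays with a CT in every sample, ordered from the lowest mean CT, miR-24 ranked 2, miR-27b 16, miR-23a 19, miR-23b 20 and miR-27a 32. Between 179 and 307 miRNA assays were detected per array, and the array median CT lay between 31.3 and 34.8. At E20 302, 306 and 282 assays were detected, and at P25 202, 223 and 223 (replicates 1 to 3). The array median was thus taken over fewer assays at P25. The highest medians belonged to P15 replicate 1 (34.8), P25 replicate 1 (34.2) and P5 replicate 1 (34.1). A level below is how many cycles an assay came before its array's median CT, so that 1 unit is a doubling (log2) and higher is more.

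No change of any of the 5 miRNAs with age was detected. Their age means moved by 0.19 to 0.88 on the log2 scale, while replicates of an age had a pooled SD of 0.877 to 1.00.

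miR-24, the member that both clusters encode, was the most abundant by its assay. Its levels were 6.49, 5.24 and 5.89 at E20 and 5.52, 6.17 and 6.34 at P25 (replicates 1 to 3). Between these ages they were 5.18, 6.53 and 5.74 at P5 and 4.02, 6.52 and 7.12 at P15. The ages overlapped throughout, and the lowest and the highest value both belonged to P15. The mean was 5.87 ± 0.627 (SD, n = 3) at E20, 5.82 ± 0.677 at P5, 5.89 ± 1.64 at P15 and 6.01 ± 0.434 at P25.

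miR-23a, the first hairpin of the a cluster, stood at 4.90, 3.84 and 4.49 at E20 and at 4.31, 4.76 and 5.12 at P25. At P5 its levels were 2.86, 5.11 and 4.33, and at P15 they were 2.43, 4.59 and 5.27. Replicate 1 was the low sample at P5, P15 and P25, and the high sample at E20. The mean was 4.41 ± 0.537 (SD, n = 3) at E20, 4.10 ± 1.14 at P5, 4.10 ± 1.48 at P15 and 4.73 ± 0.403 at P25.

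miR-23b, its counterpart in the b cluster, had levels of 4.58, 3.39 and 3.88 at E20 and 3.76, 5.00 and 4.84 at P25. They were 3.23, 4.79 and 4.48 at P5 and 2.98, 4.82 and 6.10 at P15. The E20 and P25 samples overlapped, and P15 replicates 1 and 3 were the lowest and the highest of the 12. The mean was 3.95 ± 0.598 (SD, n = 3) at E20, 4.17 ± 0.828 at P5, 4.63 ± 1.56 at P15 and 4.53 ± 0.671 at P25.

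miR-27a, the lowest of the 5 by its assay, had levels of 4.41, 3.30 and 3.31 at E20 and 2.90, 4.24 and 4.76 at P25. They were 3.06, 4.73 and 4.00 at P5 and 2.73, 3.78 and 4.78 at P15. The ranges of all 4 ages overlapped. The mean was 3.68 ± 0.639 (SD, n = 3) at E20, 3.93 ± 0.835 at P5, 3.76 ± 1.03 at P15 and 3.97 ± 0.958 at P25.

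miR-27b had levels of 5.27, 3.72 and 4.18 at E20 and 4.29, 5.02 and 5.40 at P25. They were 3.55, 5.40 and 4.67 at P5 and 2.42, 4.28 and 5.36 at P15. E20 replicate 1 lay above P25 replicates 1 and 2, so these ages overlapped too. The mean was 4.39 ± 0.799 (SD, n = 3) at E20, 4.54 ± 0.931 at P5, 4.02 ± 1.49 at P15 and 4.90 ± 0.560 at P25.

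**Figure D1:**
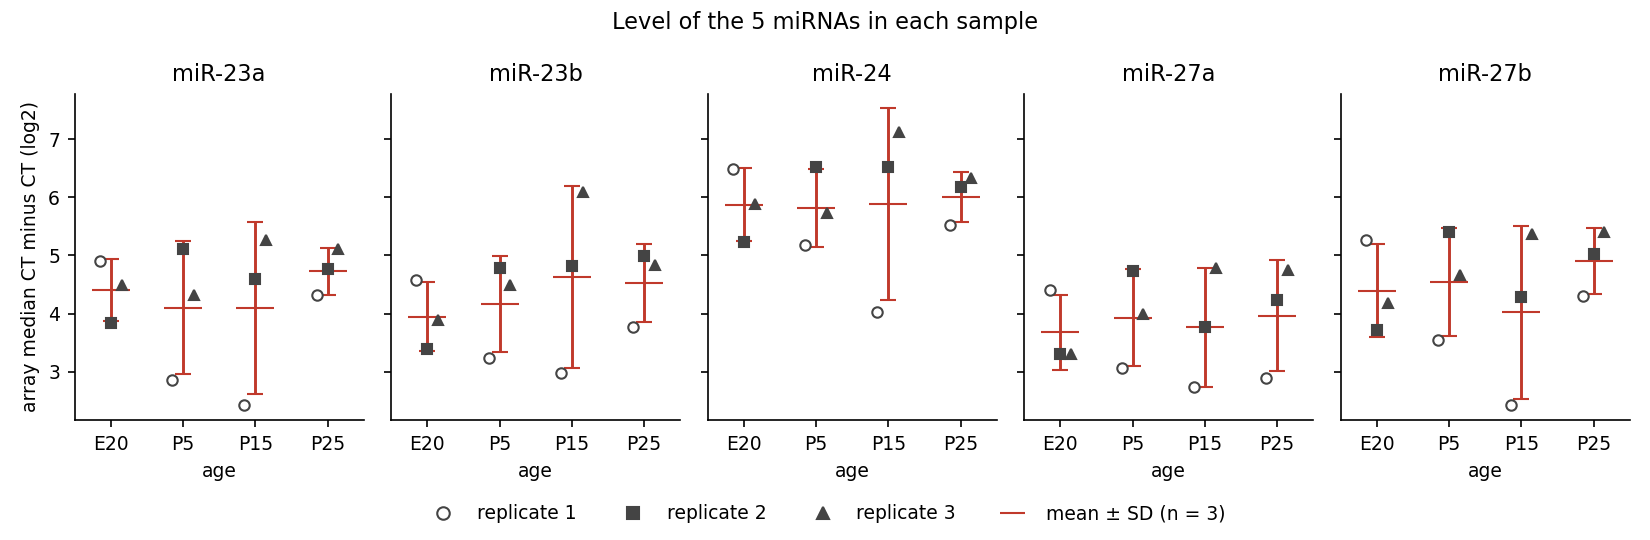
Level of each of the 5 miRNAs (array median CT minus CT, log2) in each of the 12 samples by age, with symbols for the replicate and the mean ± SD (n = 3). The samples of the 4 ages overlap for every miRNA, and replicate 1 is the lowest of its age at P5, P15 and P25 in each panel.

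By their mean level over the 12 samples the order was miR-24 (5.90), miR-27b (4.46), miR-23a (4.33), miR-23b (4.32) and miR-27a (3.83). Levels of different assays also carry each assay's own efficiency, so the order is one of assays. miR-24 exceeded its neighbour miR-27b in 12 of 12 samples, by 0.94 to 2.24. miR-27b, miR-23a and miR-23b did not separate: miR-27b exceeded miR-23a by 0.13 ± 0.297 (SD) and in 7 of 12 samples, and miR-23a exceeded miR-23b by 0.01 ± 0.468 and in 6 of 12. miR-23b lay above miR-27a in 12 of 12 samples, by 0.07 to 1.32.

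The question whether these miRNAs change as the acinar cell matures was put to the same limma fit over all 192 assays that were detected often enough to test, with at most 1 replicate of an age lacking a CT. Across the 4 ages, 0 of the 5 passed an adjusted p of 0.05 and 0 an unadjusted p of 0.05, while 15 of 192 assays (7.81%) passed the former and 20.8% the latter. The limma F test gave unadjusted p-values from 0.780 for miR-27b to 0.996 for miR-24. Among the 192 assays, ordered from the smallest range of the 4 age means, miR-24 ranked 1 (a range of 0.19), miR-27a 2 (0.29), miR-23a 10 (0.63), miR-23b 12 (0.68) and miR-27b 25 (0.88), beside a median range of 1.68. Their spread among replicates was nearer the middle: ordered from the smallest within-age SD, the 5 ranked from 57 to 80 of 192. The 5 share the array median and varied together, so their ranks are not independent. The 192 include scarcer assays and imputed wells, and the ranks among assays of similar CT were not tested.

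From E20 to P25, 0 of the 5 were called and 0 passed an unadjusted p of 0.05, beside 23 of 192 assays (12%) at the adjusted and 32.3% at the unadjusted threshold. The limma change was 0.14 ± 0.842 (SE) for miR-24, 0.29 ± 0.807 for miR-27a, 0.32 ± 0.853 for miR-23a, 0.51 ± 0.856 for miR-27b and 0.59 ± 0.852 for miR-23b, with adjusted p-values from 0.673 to 0.905. The median of the 5 changes was 0.32 beside 0.15 over all 192 assays. The 95% intervals were wide: that of miR-24 ran from -1.65 to 1.93 and that of miR-23b from -1.22 to 2.40, so changes within these bounds could not be told from none. Exact two-sided permutation tests of 3 samples against 3, which cannot go below 0.1, gave p-values of 0.8 for miR-24, 0.9 for miR-27a, 0.5 for miR-23a, 0.4 for miR-27b and 0.3 for miR-23b. The E20 and P25 samples overlapped for all 5, while they did not overlap for 61 of the 156 assays measured in all 6 of these samples (39.1%). The direction of the small changes was not fixed: with no array reference all 5 were negative (-1.58 to -1.14), where the median of all assays was -1.58.

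**Figure D2:**
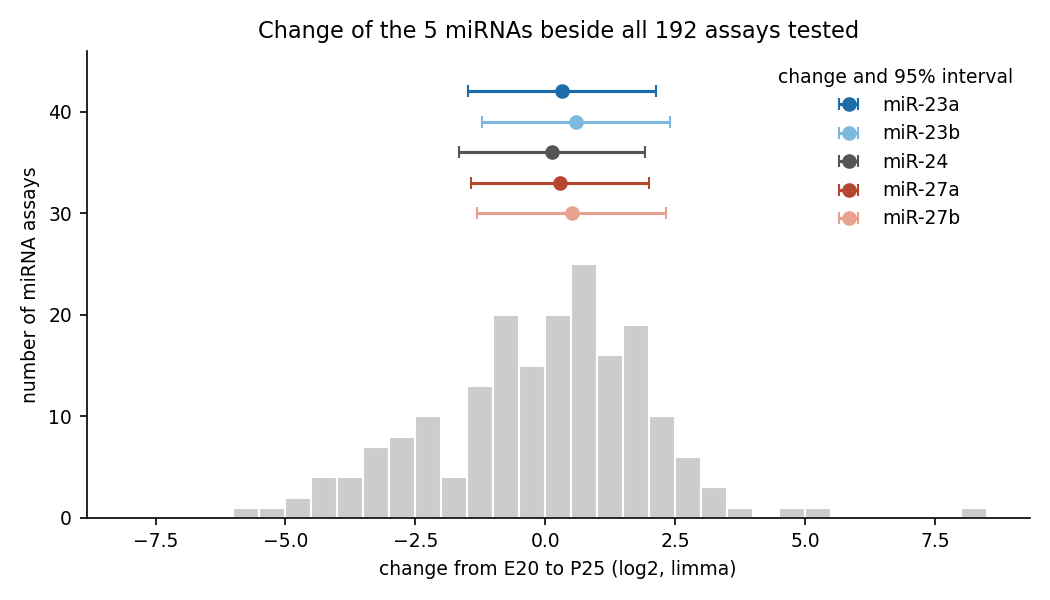
Change from E20 to P25 (log2, limma) of the 192 assays tested as a histogram of assay counts, with the change and 95% interval of each of the 5 miRNAs drawn above it at arbitrary heights. The 5 points lie between 0.14 and 0.59, in the middle of the distribution, and each interval includes 0.

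The other pairs of ages gave no call among the 5 either. P5 to P25 called 6 of 192 assays (3.12%), and E20 to P5, E20 to P15, P5 to P15 and P15 to P25 called none (0%) by limma. The most marked of the members' changes between any pair of ages was that of miR-27b from P15 to P25, 0.88 ± 0.856 (SE) with an unadjusted limma p of 0.319. Along age, the linear trend called 27 of 192 assays (14.1%, and 31.2% at an unadjusted p of 0.05) but 0 of the 5 at either threshold, with limma adjusted p-values from 0.580 to 0.916. The quadratic trend called 0 of 192 (0%), and again 0 of the 5 passed an unadjusted p of 0.05.

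Within an age the 5 miRNAs varied together from sample to sample. Their mean was 2.92, 4.79 and 5.73 in the P15 replicates 1 to 3, and 3.58, 5.31 and 4.64 in those of P5. It was 4.16, 5.04 and 5.29 at P25 and 5.13, 3.90 and 4.35 at E20. Replicate 1 was thus the lowest sample at the 3 postnatal ages and the highest at E20. The 3 arrays of highest median CT were these same postnatal replicates 1, and the part of the median CT in this spread was not tested.

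**Figure D3:**
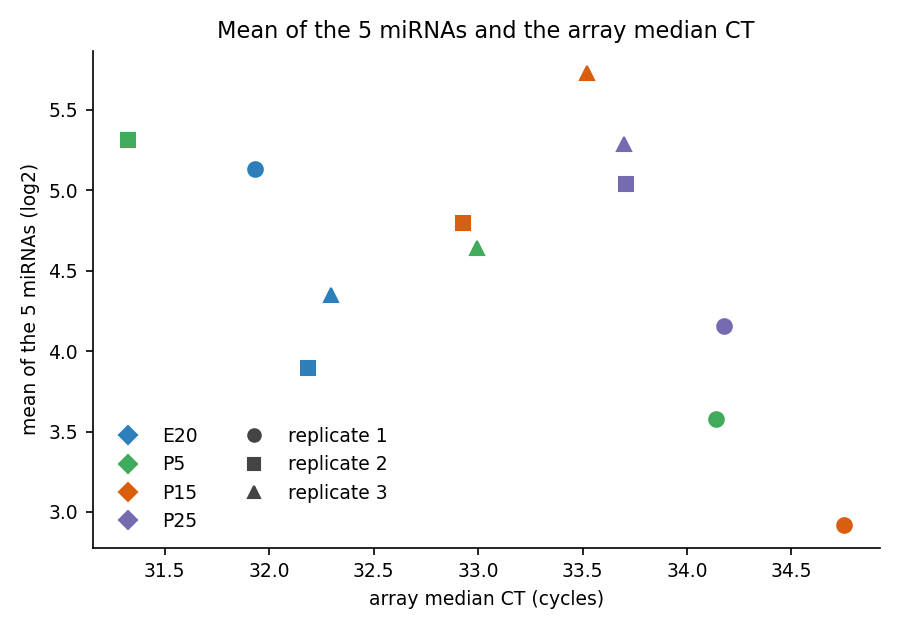
Mean level of the 5 miRNAs (log2) against the array median CT (cycles) for each of the 12 samples, coloured by age and with symbols for the replicate. The 3 arrays with a median CT above 34 have means of 2.92, 3.58 and 4.16, the other 9 means of 3.90 to 5.73.

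Over the 12 samples the 10 correlations among the 5 miRNAs were between 0.840 (miR-23a with miR-27a) and 0.947 (miR-23a with miR-27b). After the age means were removed they were between 0.859 (miR-24 with miR-27a) and 0.975 (miR-23b with miR-27b). The highest value joined members of different clusters before this step and members of the b cluster after it. The margin was small, since miR-23a with miR-27b then stood at 0.970. The a cluster pair, miR-23a with miR-27a, was at 0.879 after this step. All these values share the array, its RNA input and its median, and they are given as a description.

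Of the 119 other assays measured in all 12 samples, those most like each member were in part the members themselves. miR-23a was followed by miR-27b (r = 0.947), miR-24 (0.931) and miR-125b-5p (0.919), and the median over the 119 was 0.364. miR-27a, of the same cluster, ranked 9 for it (0.840). miR-27b was followed by miR-23a (0.947), miR-24 (0.913) and miR-27a (0.909), so that its 3 nearest assays were all members. Yet miR-23b, of the same cluster, ranked only 11 for it (0.852). miR-27a was followed by miR-27b (0.909), miR-23b (0.881) and miR-26a (0.878), and miR-23a ranked 7 for it (0.840).

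The other members also had neighbours outside the clusters. miR-23b was followed by miR-30d (0.976), miR-24 (0.914) and the rat assay of miR-200b (0.905), a miRNA of epithelial cells. For miR-23b, miR-27b of the same cluster ranked 11 (0.852). miR-24 was followed by miR-21 (0.933), miR-23a (0.931) and miR-30d (0.922).

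The a and b clusters were then compared by the difference of a pair of CTs on the same array, which needs no array reference. It is given as log2 of the first named over the second, and since its level holds both assays' efficiency, its change between ages is what was tested. How often ages separate for other pairs of assays was not counted, so overlap of ages is given below as a description. The test was an exact permutation of the 12 samples over the 4 ages (369600 arrangements), adjusted over 8 member pairs, which share members and are not independent. At an adjusted p of 0.05, 0 of 8 pairs passed; 3 did at an unadjusted p of 0.05. With ages permuted only within a replicate number (replicate block) none of the 3 passed even unadjusted: the exact permutation p was 0.0642 for miR-23a minus miR-23b, 0.0573 for miR-23b minus miR-27b and 0.0833 for miR-24 minus miR-27b.

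miR-23a exceeded miR-23b at E20 by 0.33, 0.45 and 0.60 (replicates 1 to 3), and at P15 it lay below miR-23b, with differences of -0.55, -0.23 and -0.82. The differences were -0.37, 0.32 and -0.16 at P5 and 0.55, -0.24 and 0.28 at P25. The E20 samples overlapped with neither P5 nor P15, and P5 and P25 held both signs. The mean was 0.46 ± 0.139 (SD, n = 3) at E20, -0.07 ± 0.354 at P5, -0.54 ± 0.299 at P15 and 0.20 ± 0.399 at P25. The exact permutation p was 0.0233 and 0.0932 after adjustment. From E20 to P25 the difference moved by -0.27 (95% interval -0.86 to 0.32, exact two-sided permutation p = 0.4). The side of the threshold depended on a single sample: without P25 replicate 2 the adjusted exact permutation p was 0.0481, and without each of the other 11 samples in turn it was 0.0610 to 0.207.

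miR-27a lay below miR-27b in 11 of 12 samples. The differences were -0.86, -0.42 and -0.87 at E20, -0.49, -0.67 and -0.67 at P5, 0.30, -0.50 and -0.58 at P15, and -1.39, -0.78 and -0.64 at P25. The single positive value belonged to P15 replicate 1, the array of highest median CT. P15 and P25 did not overlap, while every other pair of ages did. The mean was -0.71 ± 0.258 (SD, n = 3) at E20 and -0.94 ± 0.401 at P25. The exact permutation p across ages was 0.149 (adjusted 0.226). The change from E20 to P25 was -0.22, with a 95% interval of -0.88 to 0.43 and an exact two-sided permutation p of 0.6.

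Between the miR-23 and miR-27 hairpins of the b cluster, P15 stood apart. miR-23b lay above miR-27b there by 0.56, 0.54 and 0.73, and below it in the other 9 samples, with differences of -0.70, -0.33 and -0.30 at E20, -0.32, -0.61 and -0.19 at P5, and -0.53, -0.02 and -0.56 at P25. The P15 samples overlapped with no other age. The means were -0.44 ± 0.222 (SD, n = 3), -0.37 ± 0.215, 0.61 ± 0.108 and -0.37 ± 0.303 from E20 to P25. The exact permutation p was 0.0168, and 0.0932 after adjustment over the 8 pairs. It passed after adjustment without P5 replicate 1 (0.0464) and without P25 replicate 2 (0.0481). Without each of the other 10 samples in turn the adjusted exact permutation p was 0.0730 to 0.179. Between E20 and P25 this difference changed by 0.07 (95% interval -0.35 to 0.49, exact two-sided permutation p = 0.8).

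In the a cluster the P15 samples overlapped with the other ages. The within-age SD of this difference was wider, 0.474 against 0.223 in the b cluster, so a similar shift would be harder to see. miR-23a exceeded miR-27a in 10 of 12 samples, by a mean of 0.73 ± 0.383 (SD, n = 3) at E20, 0.17 ± 0.324 at P5, 0.33 ± 0.572 at P15 and 0.76 ± 0.567 at P25. The exceptions were P5 replicate 1 (-0.20) and P15 replicate 1 (-0.30). The exact permutation p was 0.362 (adjusted 0.414), and the change from E20 to P25 was 0.03, with a 95% interval of -0.86 to 0.92. Whether P15 differed between the clusters was not tested.

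**Figure D4:**
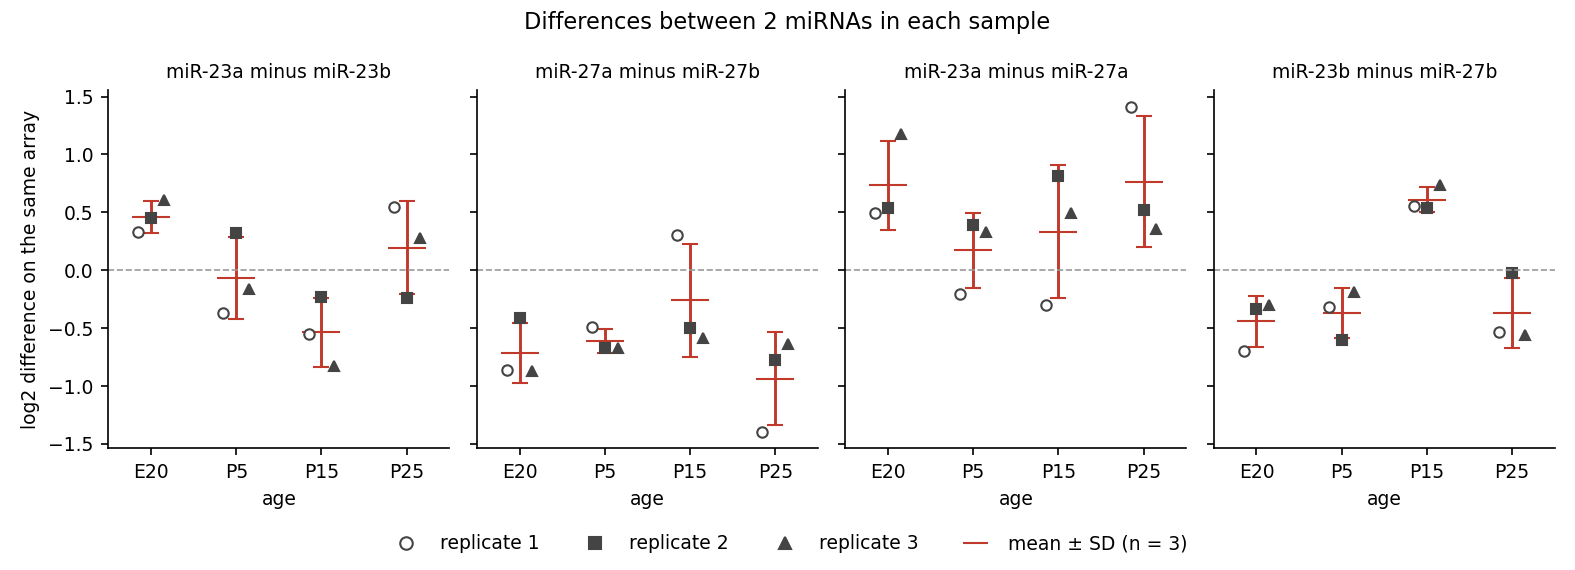
Log2 difference between a pair of miRNAs on the same array in each of the 12 samples by age, with symbols for the replicate and the mean ± SD (n = 3); above the dashed line at 0 the first named is higher. The P15 samples of miR-23b minus miR-27b lie at 0.54 to 0.73, all others of that panel at or below -0.02.

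miR-24 exceeded each of the other 4 in 12 of 12 samples. Over all samples its mean excess was 1.43 over miR-27b, 1.56 over miR-23a, 1.57 over miR-23b and 2.06 over miR-27a. The excess over miR-27b was 1.48 ± 0.248 (SD, n = 3) at E20, 1.28 ± 0.310 at P5, 1.86 ± 0.334 at P15 and 1.11 ± 0.147 at P25, with an exact permutation p of 0.0351 (adjusted 0.0935). The excess over miR-23b was 1.91, 1.85 and 2.00 at E20 and 1.75, 1.17 and 1.50 at P25. These did not overlap, the mean moved by -0.45 (95% interval -1.02 to 0.12), and the exact two-sided permutation p was 0.1, the smallest possible. Across the 4 ages its adjusted exact permutation p was 0.226. The excess over miR-23a gave 0.226 and that over miR-27a 0.874 in the same adjusted test. Without P5 replicate 1, where miR-24 exceeded miR-23a by 2.32, the pairs of miR-24 with miR-23a and with miR-27b both reached an adjusted exact permutation p of 0.0464. Without each of the other samples in turn it was 0.170 to 0.442 for the pair with miR-23a and 0.121 to 0.223 for that with miR-27b.

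As a background for the a and b comparison, the panel held 13 pairs of assays named miR-Na and miR-Nb with a CT in every sample, and 2 of them passed an adjusted exact permutation p of 0.05 across ages. These were miR-106a with miR-106b and miR-99a with miR-99b, both 0.0135, and the differences moved from E20 to P25 by 1.10 and 3.14. Over the 11 pairs other than those of miR-23 and miR-27 the size of this move was 0.17 to 3.14 with a median of 0.58, beside 0.27 for miR-23 and 0.22 for miR-27. The within-age SD of the difference was 0.313 for miR-23 and 0.346 for miR-27, below the 0.517 to 1.69 of the 11 others. The 11 others differed in how well they were measured: the mean CT of the scarcer assay was 28.8 to 37.3 among them, 28.8 for the miR-23 pair and 29.3 for the miR-27 pair. The a and b forms of miR-23 and of miR-27 differ by 1 base, and how far each assay also amplifies the other form was not measured. The part of the CTs or of such amplification in the narrow spread and small change was not tested.

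**Figure D5:**
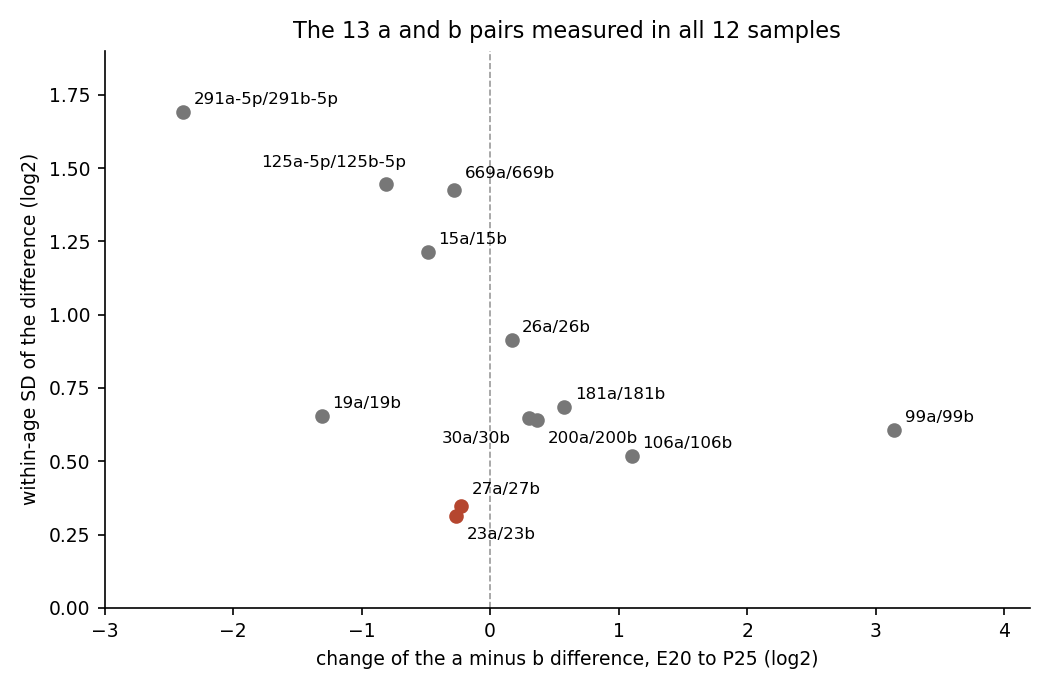
Within-age SD of the a minus b difference (log2) against its change from E20 to P25 (log2) for the 13 pairs of assays measured in all 12 samples, with the pairs of miR-23 and miR-27 in red. These 2 points lie lowest, at 0.313 and 0.346, and near a change of 0.

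Markers of the cells that a parotid sample can hold were read in the same arrays. Of the secretory miRNAs, both miR-375 and miR-148a rose from E20 to P25, miR-148a by 5.20 ± 0.745 (SE, limma adjusted p = 0.000703). Of the 9 epithelial assays none passed the limma test, and their directions differed. The assays of miR-200a, miR-200b, miR-200c, miR-141 and miR-429 moved by 1.00 to 2.75, while miR-203 moved by -2.13 and miR-205 by -2.23. The summed epithelial level was 6.93 to 8.35 at E20 and 8.10 to 9.08 at P25. At E20 miR-205 was the highest epithelial assay, with a mean of 6.75, before the rat assay of miR-200c at 4.31. The summed level of the secretory list was 2.49 to 3.70 at E20 and 8.01 to 8.66 at P25. At E20 it lay below the sums of mesenchyme (4.81 to 5.57), striated muscle (4.355 to 6.225) and smooth muscle and pericytes (4.77 to 5.11). The lists hold different numbers of assays, so these sums are a description. No list tells acinar from duct cells. In these arrays the labelled cell type was thus checked only as far as a secretory epithelium at P25 and an epithelium at E20.

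Some markers of other cell types changed with age. miR-145, of smooth muscle and pericytes, rose by 4.74 ± 1.43 (SE, limma adjusted p = 0.0388), 1 of 3 assays of its list. miR-214, of mesenchyme, fell by 4.53 (limma adjusted p = 0.00466), 1 of 3, and the summed level of the list was 4.81 to 5.57 at E20 and 2.30 to 2.68 at P25. Of the striated muscle list 2 of 3 tested assays fell, and of the leukocyte list 0 of 4 tested assays passed. None of the 3 erythrocyte assays was detected often enough to test.

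The defining miRNA of endothelium, miR-126-3p, was measured in all 12 samples. Its level was 2.56 to 3.93 at E20, 3.07 to 4.33 at P5, 1.83 to 4.74 at P15 and 2.71 to 4.88 at P25, and its change of 0.93 ± 0.876 (SE) from E20 to P25 had a limma adjusted p of 0.474. Over the 12 samples it correlated with the mean of the 5 miRNAs at r = 0.715, on arrays that share RNA input and median. The 9 epithelial assays correlated with the same mean at 0.284 (miR-203) to 0.824 (miR-429). The part of endothelium in the levels of the 5 miRNAs was not tested.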

How the data were processed

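miRNA was measured by qRT-PCR (Exiqon Mouse&Rat panel I, SYBR green) in laser-captured parotid acinar cells, in 12 rat samples. The authors deposited raw CT values (a score, logarithmic in template) that were neither imputed nor normalized; the genome build was not given in the sources used here. Groups and replicates came from the labels, which do not state shared litters across ages, and the litters come from the paper. The 5 miRNAs, the lists and the tests were chosen with earlier results of these data known. All 5 are named, with for each the 3 assays of highest Pearson correlation over 12 samples.

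CT above 40 or undetermined was missing. Values were the array median CT minus CT. The 192 assays in which no age lacked more than 1 of its 3 CTs were tested, after k-nearest neighbour imputation (k = 10) of 122 wells, none of them a well of the 5. Depth here is the number of assays detected per array. limma 3.58.1 in R 4.3.3 fitted 4 age means, 6 contrasts and polynomials of age in days from birth (E20 at -2), with Benjamini-Hochberg adjustment over the 192. Differences of CT between assays were tested by exact permutation, with 95% intervals of a change from the pooled within-age spread. Both procedures were tested on simulated data with an added change larger than any seen in the 5 miRNAs or their differences. These runs do not give the power to detect small changes. Alternatives changed the filter, imputation, array reference, CT limit, statistics, replicate block and samples. After the values were seen, the 3 arrays of highest median CT were also left out together. Figures used matplotlib 3.10.9.

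The ages share replicate numbers 1 to 3. Deviations from the age means of same-numbered samples correlated above 0.1 in 9 of 9 pairs among P5, P15 and P25 (0.126 to 0.563). With E20 they did so in 1 of 9 (-0.234 to 0.123). All main comparisons were unpaired, including those among P5, P15 and P25, and the replicate block was run only as an alternative.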

Additional observations from a re-analysis of the deposited data

How the results depend on the processing

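The count of the 5 miRNAs called was 0 across ages, from E20 to P25 and along age under every alternative run, also at an unadjusted limma p of 0.05. Over all assays the calls from E20 to P25 ranged from 0 (small nuclear RNAs as reference) to 47 (array median after imputation), those across ages from 0 to 23 and along age from 0 to 46. The changes from E20 to P25, none called, turned negative with no array reference (miR-23a -1.40, miR-23b -1.14, miR-24 -1.58, miR-27a -1.43, miR-27b -1.21; median of all assays -1.58) and with a CT limit of 35 (-0.41, -0.15, -0.60, -0.44 and -0.22 in the same order; median -0.44). With a CT limit of 37, miR-24 was at -0.15 and miR-27a at -0.0024 (median -0.17), and with the mean of assays measured in all samples as reference miR-24 was at -0.041. The changes were larger with small nuclear RNAs as reference (1.14 for miR-24 to 1.59 for miR-23b; median of all assays 1.15) and with the array median after imputation (0.87 to 1.32; median 0.88). Taking the median of assays measured in all samples as reference, the changes ran from 0.37 for miR-24 to 0.82 for miR-23b. The median of all assays was then 0.38. With 1 sample left out, miR-23a ran from 0.034 to 0.57, miR-23b from 0.30 to 0.97, miR-24 from -0.18 to 0.45, miR-27a from -0.11 to 0.82 and miR-27b from 0.18 to 0.96.

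Changes of the pair differences from E20 to P25 with 1 sample left out ran from -0.44 to -0.049 for miR-23a minus miR-23b (adjusted exact permutation p 0.0481 to 0.222 over all alternatives), from -0.37 to 0.0043 for miR-27a minus miR-27b, from -0.29 to 0.25 for miR-23a minus miR-27a, from -0.10 to 0.17 for miR-23b minus miR-27b and from -0.44 to 0.078 for miR-24 minus miR-27a. The pairs of the within-cluster set called ran from 0 to 3 (3 without P5 replicate 1, 1 without P25 replicate 2) and the a and b pairs of the panel from 1 (without P5 replicate 1) to 3. Without the 3 arrays of highest median CT, miR-27a minus miR-27b changed by 0.0043 and miR-23a minus miR-27a by -0.29, and 0 of the 8 pairs passed. With the replicate block the adjusted exact permutation p was 0.222 for miR-23a minus miR-23b, whose change stayed -0.27, and 0.306 for miR-27a minus miR-27b; the adjusted result of none of the 8 pairs changed side, and 0 of the 5 miRNAs was called, also among P5, P15 and P25. Over all assays the block gave 32 calls from E20 to P25, 40 along age and 9 from P5 to P25, against 23, 27 and 6. A CT limit of 35 could not alter the pair differences, since the highest CT of the 5 assays was 32.3. The mean of both species' assays was not run, since each miRNA has 1 assay. With 3 samples at an age, changes from E20 to P25 within the intervals given could not be told from none. The power to detect small changes was not estimated.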
